A study of Homo sapiens with 6 samples.

Results

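The histone genes of C4-2 cells were followed through a 6-day inhibition of fatty acid synthase. C4-2 is a castration-resistant human prostate cancer line derived from LNCaP. The compared groups were cells given IPI-9119, an inhibitor of fatty acid synthase, at 100 nM (3 libraries) and cells given 0.1% DMSO, the vehicle (3 libraries). Both groups were grown in RPMI with 10% serum, and RNA was sequenced after polyA selection. Nothing in the labels states that replicates came from different cultures; the spread behind each p-value is that of these libraries and may be technical. Members were all rows of the 14456-gene table whose Ensembl identifier carries a current symbol of a protein-coding histone. The centromeric CENPA and 6 histone pseudogenes were left out. This gave 40 genes, 30 from the replication-dependent histone clusters and 10 variant genes, and all 40 had a mean of at least 10 normalised counts. The lowest means were 10.6 for H2BC17 and 12.9 for H1-4. A further 56 histone symbols were not analysed here, so counts below describe the 40 measured genes, not all histone genes.

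Histones H2A, H2B, H3 and H4 form the nucleosome core and H1 binds the linker DNA. Replication-dependent histone genes lie in clusters, lack introns as a rule, are transcribed mainly in S phase, and make mRNAs that end in a conserved stem loop in place of a polyA tail. The stem loop is bound by SLBP, which carries the message through processing, translation and decay. Variant genes such as those of H2A.Z, H3.3 and macroH2A are transcribed outside S phase too and make ordinary polyadenylated mRNAs. A polyA-selected library therefore reads cluster genes mostly through polyadenylated forms that run past the stem loop, or through carried-over RNA without a tail, and these sources cannot be told apart here.

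The stem loop marks which transcripts belong to this system. A search of the GENCODE 29 transcripts downstream of the stop codon, for the 16-base stem loop with 6 paired stem bases, found it in 23 of the 30 cluster genes and in 1 of the 10 variant genes, H2AX. It appears below in DNA letters and in capitals, with 5 flanking bases on each side, for 7 genes that together show every version found.
H2BC21: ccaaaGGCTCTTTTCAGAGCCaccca
H4C8: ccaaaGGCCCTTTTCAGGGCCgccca
H2BC5: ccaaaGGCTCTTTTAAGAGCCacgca
H4C14: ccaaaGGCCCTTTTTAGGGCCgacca
H3C6: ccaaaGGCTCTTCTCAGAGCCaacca
H2AC11: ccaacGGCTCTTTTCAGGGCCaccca
H2AX: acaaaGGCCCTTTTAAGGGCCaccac
The version shown for H2BC21 was shared by 11 genes, all of the H2A, H2B or H3 families. That of H4C8 was shared by 5 H4 genes, that of H2BC5 by 3 H2B genes and that of H4C14 by 2 H4 genes, while those of H3C6, H2AC11 and H2AX were found once each. In 7 cluster genes, among them H1-2, H2BC11 and H2BC12, no annotated transcript held the stem loop, which says only that these letters are not in that annotated sequence.

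Recovered read totals ran from 19090749 to 20422882 in the IPI-9119 libraries and from 21952620 to 23448035 in the DMSO libraries. Of 14437 genes tested, 62.8% passed the threshold between groups, 31.3% higher and 31.4% lower with IPI-9119, so a call alone sets no gene apart in this comparison. FASN, the gene of the inhibited enzyme, did not pass (log2 fold change -0.31, limma, adjusted p 0.112), but was higher once values were corrected for length and GC content (0.84, adjusted p 2.1e-08). It is a target of the drug as a protein, so its RNA does not check the labels. All 8 markers of luminal prostate cells were detected, with summed levels of 133644 to 138950 normalised counts with IPI-9119 and 227073 to 236078 with DMSO, and 7 of them were lower. Of markers of other cells, 4 of 7 for fibroblasts and smooth muscle, 2 of 4 for endothelium and 0 of 6 for leukocytes were analysed here. The fibroblast and smooth muscle markers summed to between 124 and 189.8 normalised counts with IPI-9119 and between 130.2 and 152 with DMSO, and the endothelial markers to between 47.4 and 75.3 with IPI-9119 and between 64.2 and 64.4 with DMSO. ACTA2, a smooth muscle actin gene, was the 1 marker of another cell type to pass the test, at a mean of 16.2 normalised counts with IPI-9119 and 5.19 with DMSO. Under the length and GC correction COL1A1 (log2 fold change 1.49, adjusted p 0.000425), a collagen gene of fibroblasts, and VWF (0.89, adjusted p 0.00115), an endothelial gene, passed as higher too. The part of these markers in the histone results was not tested.

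As a family, the histone genes went both ways. Of the 40 genes, 10 were higher, 16 lower and 14 not past the threshold, or 65% called against 62.8% of all genes (limma on log2 normalised counts, adjusted p under 0.05). The share called is close to that of all genes. The classes are described by their counts and medians, and the difference between them was not tested. Among the 30 cluster genes there were 5 rises and 14 falls, with 11 not past the threshold, and the median log2 fold change was -0.32. Among the 10 variant genes there were 5 rises and 2 falls, with 3 not past, and the median was 0.16. All tested genes had a median of 0.0017. For 10 histone genes every IPI-9119 library lay above every DMSO library, and for 17 every one lay below (34% and 33.9% of all genes, 67.9% together). Changes of at least 2-fold were called for 5 histone genes that rose and 3 that fell (7.92% and 9.27% of all genes, 17.2% together). In bulk RNA, fewer cells making a transcript and less of it per cell cannot be told apart.

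The summed levels moved apart as well. Cluster genes took 0.0894%, 0.0897% and 0.0862% of all reads in the IPI-9119 libraries, against 0.108%, 0.104% and 0.102% in the DMSO libraries. Every IPI-9119 library lay below every DMSO library. In normalised counts the sums were 18745 ± 585 with IPI-9119 and 21936 ± 664 with DMSO (SD, n = 3 each), a ratio of 0.855. Variant genes took 0.257%, 0.247% and 0.247% of reads with IPI-9119, against 0.216%, 0.211% and 0.204% with DMSO, a ratio of summed normalised counts of 1.21, and again the groups did not overlap. These sums are dominated by a few abundant genes and carry no test.

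**Figure D1:**
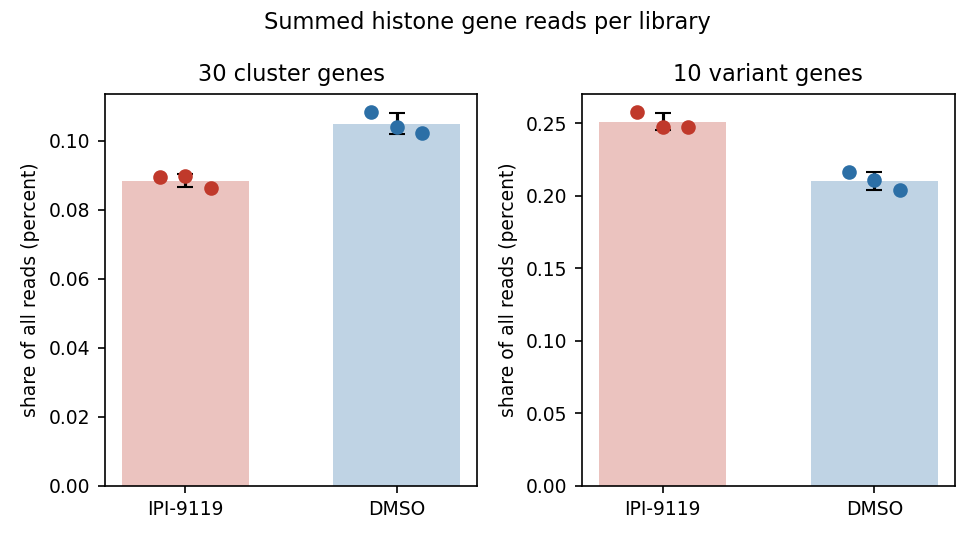
Summed reads of the 30 cluster genes and the 10 variant genes as a percent of all reads (vertical axis), in IPI-9119 and DMSO libraries. Points are libraries, bars are means and error bars are SD (n = 3); cluster genes averaged 0.0885% with IPI-9119 and 0.105% with DMSO, and variant genes 0.251% with IPI-9119 and 0.210% with DMSO.

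Of the 5 variant genes that rose, 4 encode H2A variants. H2AX, whose product is phosphorylated around DNA double-strand breaks, gave 1678, 1631 and 1699 normalised counts with IPI-9119, against 516, 507 and 506 with DMSO. All IPI-9119 libraries lay far above all DMSO libraries, a 3.28-fold difference and the largest rise of the 40 genes (log2 fold change 1.71, SE 0.060, limma, adjusted p 2.45e-11). H2AX (ENSG00000188486, chromosome 11, 119093854 to 119095467, minus strand, GRCh38, GENCODE 29) is the variant that keeps a stem loop, and its annotated transcript runs 1044 bases past it.

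H2AZ1 (ENSG00000164032, chromosome 4, 99948086 to 99950388, minus strand) encodes H2A.Z.1, a variant placed around promoters and regulatory elements. It gave 12118, 10872 and 11004 normalised counts in IPI-9119 libraries, against 5359, 5219 and 5397 in DMSO libraries. The groups were well separated, at a log2 fold change of 1.09 (SE 0.0495, limma, adjusted p 3.14e-10). Per kilobase of exonic length it was the most abundant variant in both groups, at 4920.3 normalised counts per kb with IPI-9119 and 2312 with DMSO. Its paralog H2AZ2, which encodes the closely related H2A.Z.2, gave 3214, 3327 and 3292 normalised counts with IPI-9119 and 3304, 3458 and 3229 with DMSO. Those groups overlapped and the gene did not pass (log2 fold change -0.02, adjusted p 0.698), but was lower once values were corrected for length and GC content (-0.22, adjusted p 0.000578).

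The balance of the paralogs could be read within each library. The log2 ratio of H2AZ1 to H2AZ2 was 1.91, 1.71 and 1.74 with IPI-9119, against 0.70, 0.59 and 0.74 with DMSO, a difference of 1.11. Every IPI-9119 library had the higher ratio, and the two-sided exact permutation test gave p = 0.1, the smallest that 3 against 3 libraries allow (0.15 adjusted over 3 pairs). For the H3.3 genes, the log2 ratio of H3-3A to H3-3B was -0.59, -0.52 and -0.49 with IPI-9119 and -0.77, -0.77 and -0.67 with DMSO. This difference of 0.21 was also without overlap, at the same exact p of 0.1 (adjusted 0.15). It does not keep its direction under the length and GC correction, where the log2 fold change was -0.07 for H3-3A and 0.03 for H3-3B, while those of H2AZ1 and H2AZ2 were 0.93 and -0.22. The log2 ratio of MACROH2A1 to MACROH2A2 overlapped between groups (5.79, 6.06 and 5.87 with IPI-9119, 5.82, 5.81 and 5.82 with DMSO; exact permutation p = 0.4).

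The promoters of the 2 variants that rose most are shown as the 120 bases before the RefSeq start site (GRCh38.p14), with CCAAT boxes (CCAAT) and TATA boxes (TATAAA), on either strand, in capitals. H2AX is at chr11:119095466-119095585 and H2AZ1 at chr4:99950276-99950395, both on the minus strand.
H2AX: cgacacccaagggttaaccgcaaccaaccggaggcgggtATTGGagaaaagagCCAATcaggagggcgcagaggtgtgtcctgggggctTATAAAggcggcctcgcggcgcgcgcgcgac
H2AZ1: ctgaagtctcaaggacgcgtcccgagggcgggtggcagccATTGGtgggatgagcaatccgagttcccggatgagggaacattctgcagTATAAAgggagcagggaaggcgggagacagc
In both, a TATA box began 31 bases before the start site. Across the 250 bases before the start of 27305 promoters, TATAAA was present on either strand in 11.1% and CCAAT in 33.0%. Among the 9 variant genes matched by symbol, 4 and 6 held them.

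H2AJ, a polyadenylated H2A variant gene, gave 6477, 5941 and 5781 normalised counts with IPI-9119, against 3909, 3515 and 3612 with DMSO. It rose by a log2 fold change of 0.72 (SE 0.056, limma, adjusted p 7.25e-08), without overlap of the groups, or of 0.47 under the length and GC correction. MACROH2A1, which encodes a large variant with a macro domain linked to repressed chromatin, rose modestly. Its libraries held 9359, 8884 and 8915 normalised counts with IPI-9119, against 8012, 7651 and 7711 with DMSO (log2 fold change 0.22, adjusted p 0.000678, or 0.50 under the same correction). MACROH2A2 was low, at 168, 132 and 152 with IPI-9119 and 141, 135 and 136 with DMSO, with overlapping groups, and did not pass (0.12, adjusted p 0.43).

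The H3.3 genes were nearly level. H3-3A gave 6712, 6299 and 6330.4 normalised counts with IPI-9119, against 5785, 5478 and 5566 with DMSO. The groups did not overlap and it rose by a log2 fold change of 0.20 (limma, adjusted p 0.00171), but the length and GC correction gave -0.07 (adjusted p 0.172). H3-3B, which encodes the identical protein, had 10080.5, 9008 and 8861 with IPI-9119 and 9865, 9345 and 8881 with DMSO. Its groups overlapped almost fully and it did not pass (-0.01, adjusted p 0.907).

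H1-10, which encodes the replication-independent linker histone H1.10, fell slightly, with 2501, 2637 and 2697 in IPI-9119 libraries, against 2922, 2867 and 2982 in DMSO libraries (log2 fold change -0.16, limma, adjusted p 0.0102).

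**Figure D2:**
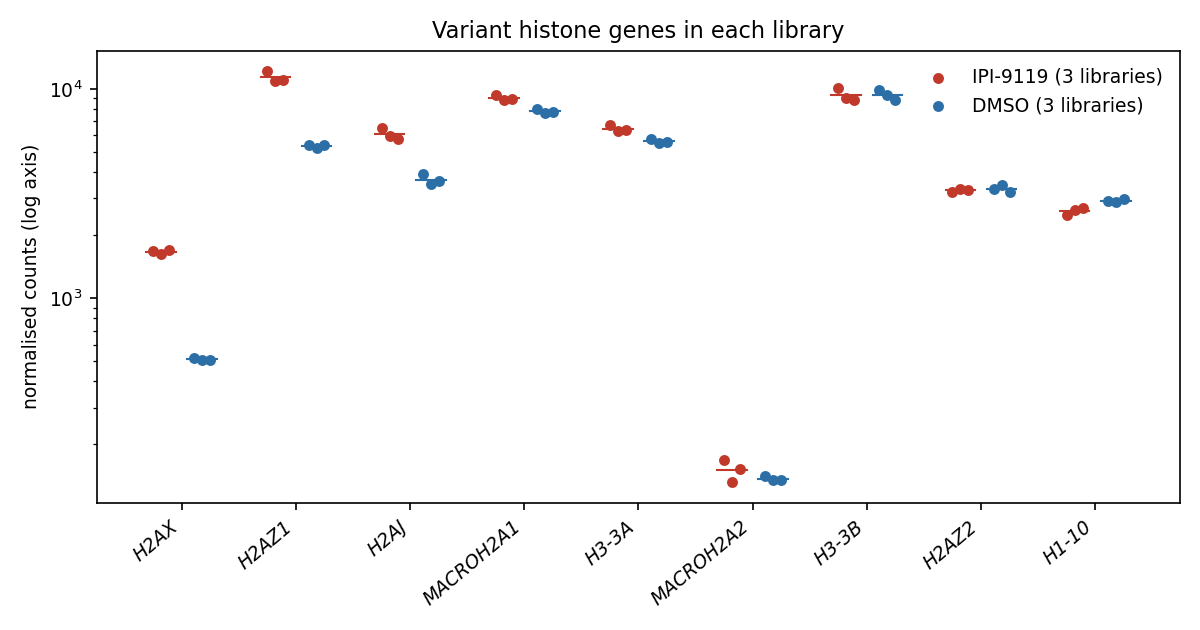
Normalised counts (vertical log axis) of 9 of the 10 variant histone genes in each IPI-9119 and DMSO library, ordered by log2 fold change. Points are libraries and lines are means; H2AX averaged 1669 ± 35.1 with IPI-9119 and 509 ± 5.41 with DMSO (SD, n = 3), while the groups of H3-3B, H2AZ2 and MACROH2A2 overlapped.

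The cluster linker histones H1-2 and H1-4 differed widely in level. H1-2 (ENSG00000187837, chromosome 6, 26055787 to 26056428, minus strand) had the third largest rise of the 40 genes, with 2798, 2767 and 2712 normalised counts in IPI-9119 libraries, against 1225, 1162 and 1145 in DMSO libraries. The groups were far apart (log2 fold change 1.23, SE 0.052, limma, adjusted p 1.64e-10). Per kilobase of exonic length H1-2 stood at 4298 normalised counts per kb with IPI-9119 and 1834 with DMSO. With IPI-9119 this was the second highest of the cluster genes, after H2BC12 (4928 with IPI-9119 and 5255 with DMSO). The annotated exonic lengths are short, at 642 nt for H1-2 and 381 nt for H2BC12, against a cluster median of 1073 nt. These ranks depend on that annotation. H1-4 was close to the detection limit, at 5.27, 9.82 and 12.1 with IPI-9119 and 24.1, 12.3 and 13.8 with DMSO, and did not pass (-0.82, adjusted p 0.101) although the groups did not overlap.

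The H2A cluster genes were divided, with 3 of 7 higher, 1 lower and 3 not past, beside 31.3% of all genes higher and 31.4% lower. H2AC11 gave 781, 758 and 703 normalised counts with IPI-9119, against 489, 398 and 486 with DMSO (log2 fold change 0.71, SE 0.090, limma, adjusted p 9.61e-06). H2AC8 had 97.0, 99.3 and 62.7 with IPI-9119, against 41.1, 47.2 and 34.0 with DMSO (1.05, adjusted p 0.000851). H2AC13 had 114, 147 and 118 with IPI-9119, against 64.4, 60.4 and 73.5 with DMSO (0.92, adjusted p 0.00021). In none of these did the groups overlap. H2AC6, the most abundant H2A cluster gene by normalised counts, went the other way, with 3425, 3136 and 2939.8 in IPI-9119 libraries, against 4648, 4055 and 4398 in DMSO libraries. It fell by 0.46 on the log2 scale (adjusted p 2.01e-05), or by 0.71 under the length and GC correction. H2AC25 was level, with 1655, 1427 and 1406 with IPI-9119, against 1512, 1350.2 and 1525 with DMSO. It, H2AC17 and H2AC20 had overlapping groups and log2 fold changes between -0.01 and 0.10.

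Beside 31.4% of all genes lower, falls were most frequent in H2B, with 8 of 12 cluster genes lower, 1 higher and 3 not past. H2BC21 (ENSG00000184678, chromosome 1, 149884459 to 149886652, minus strand), the most abundant of them by normalised counts, gave 3542, 3567 and 3373 with IPI-9119, against 5828, 5983 and 5505 with DMSO. It fell to 0.605 of the DMSO mean (log2 fold change -0.72, SE 0.049, limma, adjusted p 1.66e-08). H2BC6 (ENSG00000274290, chromosome 6, 26172059 to 26184655, plus strand) had the largest fall of the 40 genes, with 31.6, 34.9 and 31.9 normalised counts with IPI-9119, against 88.5, 116 and 96.4 with DMSO (-1.58, SE 0.19, adjusted p 5.05e-06). Every IPI-9119 library lay below every DMSO library for both. H2BC18 had 103, 129.8 and 125 with IPI-9119, against 256, 249 and 269 with DMSO (-1.11, adjusted p 2.78e-06).

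The remaining falls of H2B genes ranged from modest to nearly 2-fold. H2BC5 had 433, 482 and 477 normalised counts with IPI-9119, against 822, 829 and 746 with DMSO (log2 fold change -0.78). H2BC26 had 89.6, 80.7 and 74.8 with IPI-9119, against 155, 150.03 and 131 with DMSO (-0.82), and H2BC7 had 87.5, 93.8 and 75.9 with IPI-9119, against 149, 151 and 138 with DMSO (-0.77). These falls were without overlap, as was that of H2BC15, with 269.9, 275 and 298 with IPI-9119, against 353, 359 and 365 with DMSO (-0.35, or -0.56 under the length and GC correction). H2BC4 fell least, with 296, 352 and 293 with IPI-9119, against 378, 414 and 357 with DMSO (-0.29, adjusted p 0.0225), and its call was lost without IPI-9119 replicate 3 (adjusted p 0.0806) or DMSO replicate 2 (0.1) and with quantile scaling (0.13).

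H2BC11 (ENSG00000124635, chromosome 6, 27125897 to 27132750, minus strand) was the exception among H2B genes. It gave 161, 139.6 and 143 normalised counts with IPI-9119, against 54.5, 52.8 and 67.0 with DMSO, the largest rise of any cluster gene (log2 fold change 1.34, SE 0.16, limma, adjusted p 4.8e-06). H2BC12, the cluster gene highest per kilobase of its short annotation, gave 1814, 2001 and 1817 with IPI-9119, against 2057, 2000.3 and 1949 with DMSO. H2BC13 gave 29.5, 72.0 and 74.8 with IPI-9119, against 78.7, 62.3 and 56.9 with DMSO. H2BC17, the lowest of all, gave 9.49, 15.3 and 13.2 with IPI-9119, against 10.7, 10.4 and 4.59 with DMSO. These 3 genes had overlapping groups and did not pass (-0.09, -0.26 and 0.57).

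No H3 or H4 cluster gene rose. Of 7 H4 genes 4 fell, beside 31.4% of all genes. Their median log2 fold change of -0.50 was close to that of the H2B genes (-0.54), and the families were not tested against each other. H4C8 (ENSG00000158406, chromosome 6, 26277609 to 26285638, minus strand) gave 984, 973 and 970.02 normalised counts with IPI-9119, against 1637, 1586 and 1702 with DMSO, a fall to 0.594 of the DMSO mean (log2 fold change -0.75, SE 0.056, limma, adjusted p 5.03e-08). H4C16, on chromosome 12, had 29.5, 48.0 and 45.1 with IPI-9119, against 97.4, 88.7 and 79.9 with DMSO (-1.12, adjusted p 0.00035). H4C14 had 32.7, 25.1 and 21.996 with IPI-9119, against 50.1, 49.1 and 47.8 with DMSO (-0.87, adjusted p 0.00445). The groups did not overlap for these or for H4C5, with 97.0, 87.3 and 92.4 with IPI-9119, against 141, 127 and 123 with DMSO (-0.50, adjusted p 0.00644). H4C9, the second most abundant H4 gene by normalised counts, overlapped between groups (883, 801 and 863 with IPI-9119, 1011, 844 and 859.7 with DMSO; -0.09), as did H4C2 and H4C11. Of the H3 genes, H3C6 had 446, 399 and 425 with IPI-9119, against 520.2, 516 and 501 with DMSO. It fell by 0.28 (adjusted p 0.00749), a call lost with quantile scaling (adjusted p 0.065), and by 0.51 under the length and GC correction. H3C10 gave 811, 753 and 749 with IPI-9119, against 762, 667 and 682 with DMSO, with overlapping groups, and did not pass (0.13, adjusted p 0.136).

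**Figure D3:**
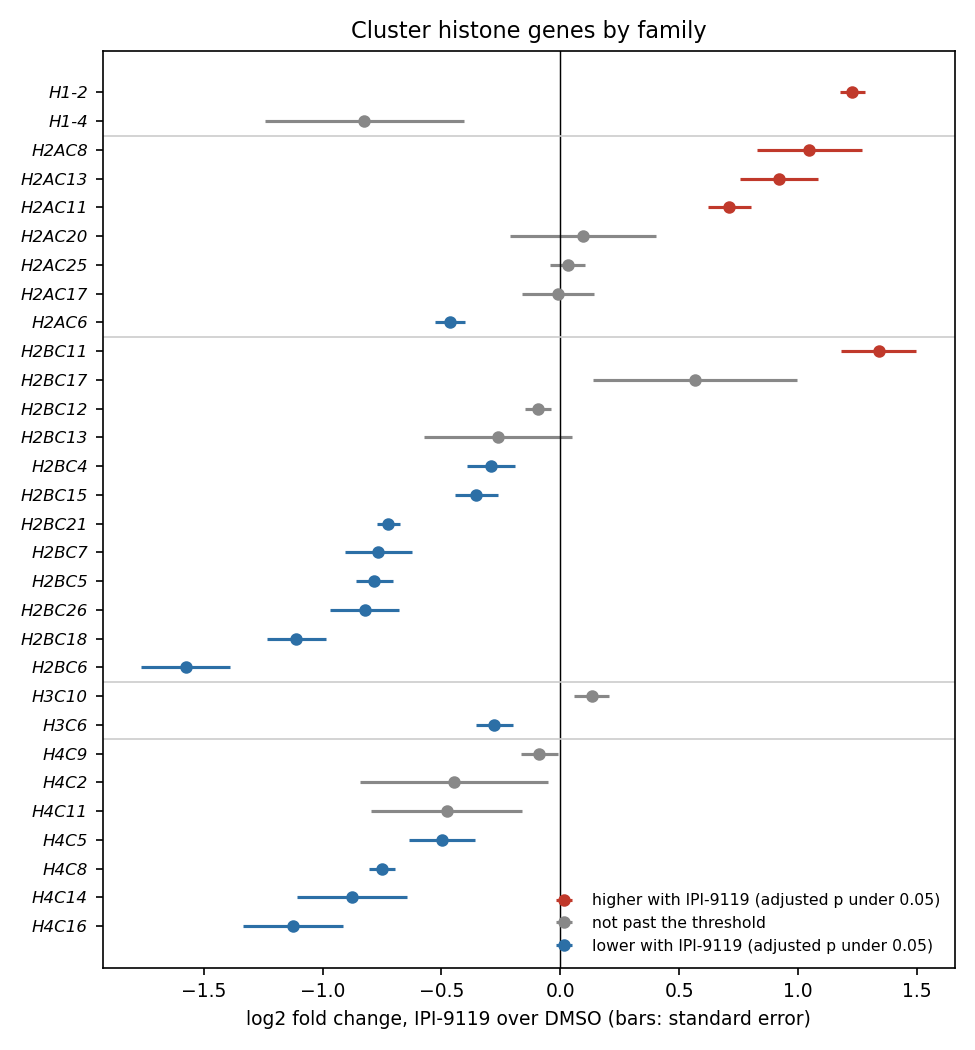
Log2 fold change of IPI-9119 over DMSO (horizontal axis, bars are standard errors, n = 3 libraries a group) of the 30 cluster histone genes, grouped as H1, H2A, H2B, H3 and H4 from top to bottom. Of these, 5 rose, led by H2BC11 at 1.34, and 14 fell, led by H2BC6 at -1.58; all that rose were H1, H2A or H2B genes.

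The cluster genes were also described by how far the annotated transcript that holds the stem loop runs past it. They stand beside 31.3% of all genes higher and 31.4% lower. Where several hold the stem loop, the transcript that runs furthest past it was used. In 16 cluster genes it ran at least 200 bases past, from 212 in H4C9 to 1917 in H2BC26, and of these 12 fell, 1 rose (H2AC11) and 3 did not pass, with a median log2 fold change of -0.61. In 7 genes it ended within 116 bases of the stem loop, and there 2 rose (H2AC8 and H2AC13), 2 fell (H2BC4 and H2BC5) and 3 did not pass (median -0.29). H2BC4 and H2BC5 each have 2 annotated transcripts, over chromosome 6 spans of 26114873 to 26123926 and 26158146 to 26171349. Transcripts without the stem loop were not measured, so in these 2 genes another annotated transcript may run further. In the 7 genes without a stem loop in the annotation, 2 rose (H1-2 and H2BC11), 0 fell and 5 did not pass (median 0.10). The 200-base split was chosen with the annotated lengths and the values in view, and the difference between the groups was not tested.

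Transcript length differed between these groups. The median exonic length was 2178.5 nt in the first group, 503 nt in the second and 393 nt in the third. Across the 30 cluster genes, which share the same libraries, log2 fold change and exonic length had a Spearman correlation of -0.48, against -0.17 across 14386 genes. With length and GC content corrected for, the correlation in the cluster genes was -0.56, and 5 of them were higher and 16 lower (30.7% and 34.1% of all genes). Without the correction, 62.8% of all genes passed the test. Cluster genes averaging under 100 normalised counts then passed in 5 of 11 cases and those above in 14 of 19.

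**Figure D4:**
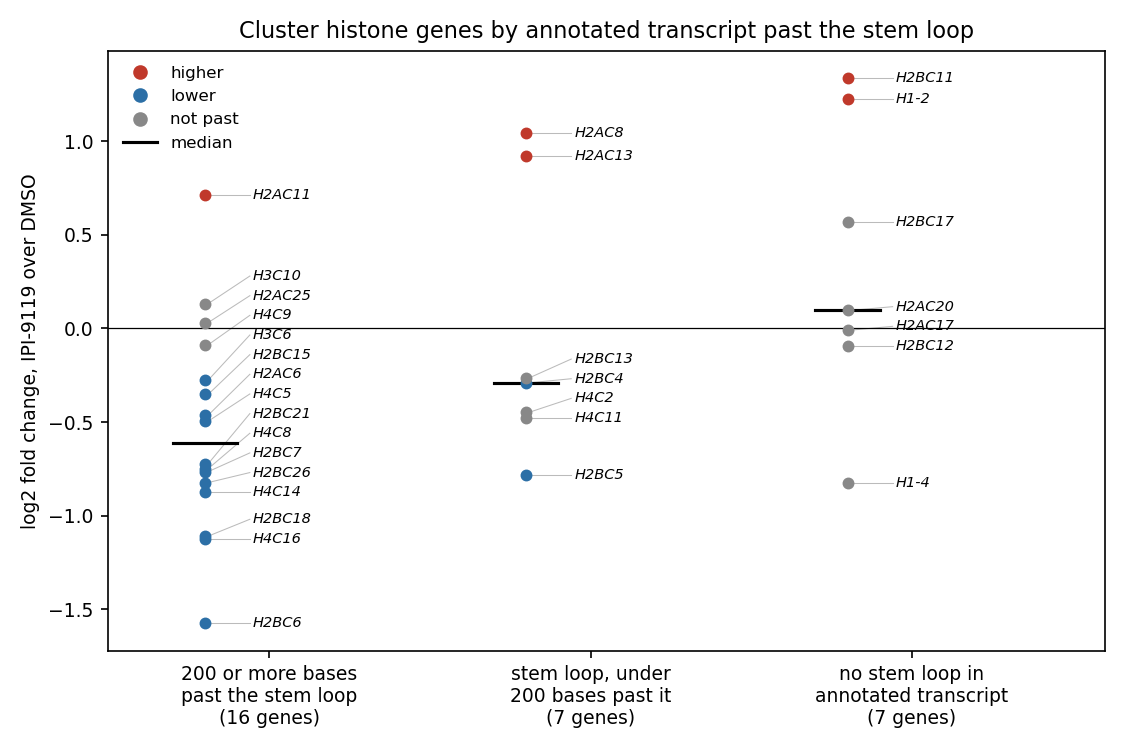
Log2 fold change of IPI-9119 over DMSO (vertical axis) of each cluster histone gene, by how far its annotated transcript that holds the stem loop runs past it. Points are genes coloured by call and black lines are medians: -0.61 for 16 genes with at least 200 bases past the stem loop, -0.29 for 7 with fewer and 0.10 for 7 with no stem loop in the annotation.

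Cluster H2A and H2B genes are often arranged head to head around a shared promoter. Among the 40 genes there were 6 such pairs, with 229 to 247 bases between the start sites. Of these, 2 had both genes called in the same direction, 0 in opposite directions, 3 had 1 gene called and 1 had none. Of all genes, 31.3% were higher and 31.4% lower, and whether paired genes agree more often than others was not tested. H2AC11 and H2BC11 both rose, and H2AC6 and H2BC4 both fell. H2BC21 fell while its neighbour H2AC20 did not pass, H2BC26 fell while H2AC25 did not pass, and H2AC13 rose while H2BC13 did not pass; whether the partners differ was not tested.

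The whole stretch between the start sites is given for the pairs with both genes called, read on the plus strand (GRCh38.p14). It is at chr6:27132796-27133042 for H2AC11 with H2BC11 and at chr6:26123927-26124171 for H2AC6 with H2BC4. The H2B gene starts at the left end on the minus strand. To these is added the 120 bases before H2BC6, the gene with the largest fall, at chr6:26183641-26183760 on the plus strand. Capitals mark the octamer (ATTTGCAT), the CCAAT box, the TATA box and an E2F site (TTTCGCGC) on either strand, which overlap in places in the first sequence.
H2AC11 with H2BC11: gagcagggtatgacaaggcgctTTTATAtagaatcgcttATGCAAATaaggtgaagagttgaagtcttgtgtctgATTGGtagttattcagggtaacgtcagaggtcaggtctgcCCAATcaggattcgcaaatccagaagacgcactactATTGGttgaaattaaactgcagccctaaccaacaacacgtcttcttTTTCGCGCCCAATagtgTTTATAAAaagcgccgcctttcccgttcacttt
H2AC6 with H2BC4: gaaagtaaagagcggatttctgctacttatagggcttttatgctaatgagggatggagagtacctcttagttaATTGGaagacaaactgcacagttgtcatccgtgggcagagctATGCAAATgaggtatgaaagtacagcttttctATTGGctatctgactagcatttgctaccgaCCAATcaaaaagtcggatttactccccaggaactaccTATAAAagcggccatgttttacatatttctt
H2BC6: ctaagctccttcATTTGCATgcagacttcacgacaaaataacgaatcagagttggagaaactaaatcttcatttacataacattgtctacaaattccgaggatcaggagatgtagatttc
The pair that rose and the pair that fell both carry the octamer, which POU2F1 (Oct-1) binds, and both carry CCAAT and TATA boxes. The E2F letters are in the first stretch only of these 3 sequences. Within 250 bases before its start H2BC6 also held CCAAT and TATAAA matches, which are not in the 120 bases shown.

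The motifs were then counted over all cluster genes. Within 250 bases before the start, the octamer was present in 8 of 12 H2B, 5 of 7 H2A and 0 of 7 H4 cluster promoters, against 1.66% of 27305 promoters. TATAAA was present in 20 of 30 cluster promoters and CCAAT in 24 of 30, and TTTCGCGC in 7 of 30 against 0.469% of all. The 250-base windows of head-to-head partners, 229 to 247 bases apart, cover nearly the same DNA. A match there can count for both genes, so these counts are not of independent promoters. The octamers counted for H2AC11 and H2BC11 are the same site, as are those for H2AC6 and H2BC4. H2AC17 with H2BC17 and H2AC20 with H2BC21 were also both counted. TTTCGCGC was likewise counted for both genes of 3 pairs, H2AC11 with H2BC11, H2AC13 with H2BC13 and H2AC17 with H2BC17. The remaining match was that of H2BC12. Of the 13 cluster genes with the octamer 3 rose and 6 fell, and of the 17 without it 2 rose and 8 fell. The shares called were 69.2% and 58.8%, beside 62.8% of all genes (31.3% higher and 31.4% lower). The difference was not tested. A match is a description of letters, not evidence of binding.

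Some cluster genes share sequence with near copies, which leaves their separate levels uncertain. Over 20% of the 50-base stretches of 7 genes occur in transcripts of other genes: 97.5% for H4C14 (shared with H4C15), 86.3% for H2AC17, 81.2% for H4C11 (with H4C12), 74.1% for H2BC12, 62.3% for H2AC13 (with H2AC14), 30.5% for H2AC20 and 25.7% for H2BC18. Among the other 23 cluster genes, 4 rose and 12 fell, beside 31.3% of all genes higher and 31.4% lower. The strand setting of the counting is not given in the sources used here, so reads of genes that overlap in the annotation cannot be told apart either. Annotated overlaps concern H2AZ1 (with H2AZ1-DT), H3-3A (with H3-3A-DT), H1-10 (with H1-10-AS1), H2BC6 (with ENSG00000283064), H2BC5 (with ENSG00000283064 and LARP1P1), H2BC15 (with H2AC15, H2AC16 and H2BC16P), H4C14 (with H3C14), H2AC17 (with H3C12), H2BC18 (with FCGR1A and ENSG00000233030), H3-3B (with UNK and MIR4738), MACROH2A2 (with AIFM2) and MACROH2A1 (with PITX1-AS1 and ENSG00000270021).

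Genes that drive histone transcription were set beside the histone genes. NPAT, the cyclin E-CDK2 substrate that activates histone genes at the histone locus body, did not pass (log2 fold change -0.05, limma, adjusted p 0.701). HINFP, a transcription factor for H4 genes, fell (-0.49, adjusted p 0.0003, or -0.27 under the length and GC correction). The cyclin gene CCNE2 (2.35) and E2F1 (2.06), which act at the start of S phase, rose. Of the 7 genes in this list 4 rose, 1 fell and 2 did not pass, with a median of 1.08. The 18 S phase genes all rose (median 1.32), led by CDC45 (2.81) and TYMS (2.79), beside 31.3% of all genes higher. The cluster histone median was -0.32, with 5 of 30 genes higher. PolyA selection limits how far the cluster mRNAs without a tail can be read, and the difference was not tested.

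Of 15 genes of histone pre-mRNA processing and decay, 3 were higher and 6 lower (median log2 fold change -0.21). Of all genes, 31.3% were higher and 31.4% lower. SLBP rose (log2 fold change 0.26, limma, adjusted p 0.00166), but after the length and GC correction it did not pass (0.12, adjusted p 0.0826). ERI1, an exonuclease that trims the stem loop end (0.47), and LSM10, a protein of the U7 particle (0.38), rose. SYMPK, the scaffold of the cleavage complex (-1.75), and UPF1, a helicase needed for histone mRNA decay (-1.51), fell. Under the length and GC correction these 4 values were smaller, at 0.31 for ERI1, 0.23 for LSM10, -1.05 for SYMPK and -0.74 for UPF1, and each gene still passed. CASP8AP2 (FLASH), a processing factor, fell (-0.45, adjusted p 0.0375), but did not pass when IPI-9119 replicate 1 (adjusted p 0.172) or any DMSO library was left out (0.0616, 0.106 and 0.0783), with quantile scaling (0.0521), without trend and robust moderation (0.0724) or with DESeq2 (0.0655).

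Histone chaperones went both ways, as did all genes (31.3% higher and 31.4% lower). Of 21 for H3-H4, 9 were higher, 9 lower and 3 not past (median log2 fold change -0.09). Of 21 for H2A-H2B and H2A.Z, 7 were higher, 9 lower and 5 not past (median 0.03). The replication-linked chaperones ASF1B (2.35) and CHAF1B (1.17) rose (limma, adjusted p 6.93e-10 and 1.13e-06). CHAF1A, the large subunit of the same assembly factor as CHAF1B, fell (-0.50, adjusted p 0.0111), but not with DMSO replicate 2 left out (-0.35, adjusted p 0.0717). For H3.3, whose own genes were nearly level, CABIN1 of the HIRA complex (-1.87, or -1.12 under the length and GC correction) and the remodeller ATRX (-1.34) fell. The other HIRA complex genes of the list, HIRA (-0.72), UBN1 (-1.09) and UBN2 (-0.97), fell too. DAXX, another H3.3 chaperone of the H3-H4 list, rose (0.31, limma, adjusted p 0.000628, or 0.19 under the correction).

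H2A.Z is placed by dedicated exchange complexes. SRCAP, the ATPase of the main H2A.Z exchange complex, gave 1.05, 6.54 and 4.40 normalised counts with IPI-9119, against 35.8, 67.0 and 61.5 with DMSO (log2 fold change -3.62, limma, adjusted p 1.11e-05). EP400, the ATPase of the related TIP60 complex, gave 31.6, 32.7 and 25.3 with IPI-9119, against 243, 322 and 287 with DMSO (-3.21, adjusted p 1.26e-09). Both have long annotated exonic lengths, 13674 nt for SRCAP and 18705 nt for EP400, and the length and GC correction gave -2.75 and -2.38. YEATS4, a smaller subunit of both complexes, rose (0.50, or 0.25 under the correction), as did the nucleoplasmin family gene NPM3 (0.93).

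**Figure D5:**
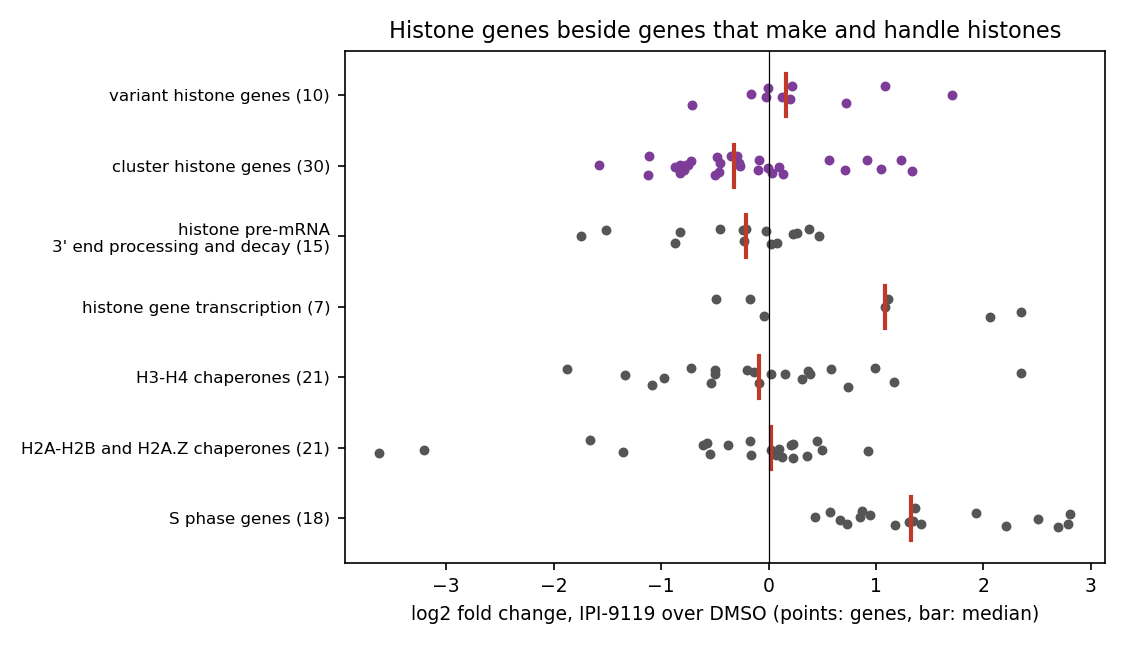
Log2 fold change of IPI-9119 over DMSO (horizontal axis) of the variant and cluster histone genes and of 5 lists of genes that drive, process, deposit or accompany histones. Points are genes and vertical bars are medians, from 1.32 for S phase genes to -0.32 for cluster histone genes.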

How the data were processed

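The deposited table holds a signal for each gene and library: whole read counts that had been scaled by one size factor per library, which the values show, since 100% are whole multiples of the value of 1 read within 0.01 read. The tools listed are STAR 2.5.2b, Trimmomatic 0.36, DESeq2 and featureCounts with Subread 1.5.2, and the build GRCh38, per the submitters' processing notes, which give no order here. Annotation release and strand setting are not given in the sources used here. Replicates of a group differed beyond counting noise (chi-square over its degrees of freedom between 2.31 and 9.76), so each is 1 sample.

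The test was limma 3.58.1 in R 4.3.3 (trend and robust moderation) on log2(value + 1) over 14437 genes with a mean of at least 10, two-sided, Benjamini-Hochberg adjusted over all of them, with calls under 0.05. The pseudocount of 1 makes the fold changes of low genes too small. The count tests on recovered reads were edgeR 4.0.16 (quasi-likelihood; 4479 genes higher, 4602 lower) and DESeq2 1.42.0. Limma called 4522 higher and 4539 lower. The length and GC correction removed from each library a spline in exonic length and GC content of GENCODE 29 genes (4 degrees of freedom each way, with their interaction). Other alternatives changed the pseudocount, filter, scaling, moderation and libraries. Scripts were tested on simulated data. Any histone gene could be named. From each other list, the called genes with the 2 largest rises and 2 largest falls were named, and SLBP, NPAT, CASP8AP2, CHAF1A, CHAF1B and ASF1B. DAXX was added because it went the other way from CABIN1 and ATRX, and HIRA, UBN1 and UBN2 as the other HIRA complex genes of the list. Promoters of 39 of 40 genes were matched in RefSeq. Of the variant genes, 1 enters the counts and sums but is not reported here by name. Members and lists were chosen with earlier results of these data known. Counts give counting precision only, and low genes are the least certain.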

Additional observations from a re-analysis of the deposited data

How the results depend on the processing

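Over 17 alternatives, the counts of histone genes ran from 9 to 10 higher and from 14 to 19 lower, those of cluster genes stayed at 5 higher and ran from 12 to 16 lower, and those of variant genes from 4 to 5 higher and 2 to 3 lower. The lowest counts of genes that fell came with quantile scaling. Of 674 values of single histone genes under an alternative, 666 kept their direction and side of the threshold or were past it in neither fit. Of 26 called genes, 23 kept call and direction under every alternative they entered (9 higher, 14 lower), and H3-3A, H2BC4 and H3C6 did not. After the length and GC correction H3-3A changed sign (-0.0692), and H2AZ2 (-0.22), H2BC12 (-0.14) and H4C9 (-0.25) passed as lower; the cause was not tested. The difference of the log2 ratio of H2AZ1 to H2AZ2 ran from 1.05 to 1.15 over other pseudocounts and with each library left out, the only alternatives run for it.

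With the replicate number as a block, 10 histone genes were higher and 16 lower, as without it. Same-numbered libraries shared deviations with correlations of 0.14, 0.063 and 0.0044, and not every library correlated best with its own number, so the numbers were not taken to pair the libraries. Genes under 20 normalised counts in a group, such as H1-4, H2BC17 and H4C2, rest on few reads, and differences in them may not be detectable at this depth.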
